A study of Homo sapiens with 57 samples.

Results

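The 14-3-3 genes described here were YWHAE (Entrez identifier 7531), YWHAQ (10971), YWHAH (7533) and YWHAB (7529), which are 4 of the 412 genes of a targeted expression panel. The rule that chose them named these identifiers and used no measured value. Earlier results of these data were, however, known when the members were chosen. All 4 were listed in the count file of every well. The study asked whether the extracts of 3 herbs used together in one recipe change the expression of genes in pathways linked to infertility. The cells were HK-2, a long-established human line from the epithelium of the kidney's proximal tubule, seeded at 3000 cells per well in multiwell plates. For each of Roucongrong (Cistanche deserticola), Yinyanghuo (Epimedium brevicornu) and Gusuibu (Drynaria fortunei), 3 wells received the extract at 100 μg/mL for 24 h. Each herb had a set of 16 control wells of its own, which received 0.5% DMSO, the solvent, so that 57 wells were measured in 6 groups. The labels carry a different set number for each herb, and a herb and its set therefore cannot be told apart when herbs are compared. The wells were not described as separate cultures or separate days, so the p-values below measure the spread between wells, which may be technical.

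14-3-3 proteins are small acidic adaptor proteins that work as dimers. They bind other proteins at short stretches that carry a phosphorylated serine or threonine, and in this way they hold clients in the cytoplasm, block or change their activity, or protect them from dephosphorylation. Clients include the death-promoting protein BAD, the FOXO transcription factors, RAF kinases and CDC25 phosphatases, and the docking sites are written by kinases such as AKT and removed by phosphatases. In human cells the family has the members beta (YWHAB), epsilon (YWHAE), theta (YWHAQ), eta (YWHAH), zeta (YWHAZ), gamma (YWHAG) and sigma (SFN). Epsilon tends to pair with other members rather than with itself. Sigma is largely an epithelial protein and mostly pairs with itself. YWHAZ, YWHAG and SFN were also in the panel and are given below only for comparison.

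The 4 genes lie on different chromosomes but have similar coding sequences, which bears on a method that tells genes apart by short probes. In GENCODE 29 on GRCh38, the coding sequences were between 62.2% (YWHAE and YWHAH) and 73.4% (YWHAB and YWHAQ) identical over the 6 pairs. Of the 723 columns in which all 4 have a base, 341 (47.2%) held the same base in all 4. The longest run of identical bases shared by a pair was 22, between YWHAQ and YWHAH. The stretch of 40 coding bases in which the 4 are most alike, with 29 bases the same in all, is printed because it shows how close the transcripts come to each other. Lower case marks columns in which all 4 agree and capitals mark the 11 columns in which they do not.
YWHAB: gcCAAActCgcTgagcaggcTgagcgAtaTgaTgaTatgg
YWHAE: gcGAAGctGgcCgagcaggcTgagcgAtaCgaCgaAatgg
YWHAQ: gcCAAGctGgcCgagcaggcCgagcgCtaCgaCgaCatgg
YWHAH: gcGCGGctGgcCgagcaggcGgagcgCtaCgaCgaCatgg
The YWHAB stretch lies in exon 2, within the coding sequence, at chr20:44901567-44901606 on the plus strand. The YWHAQ stretch lies in exon 2 at chr2:9630386-9630425 on the minus strand, and the YWHAH stretch in exon 1 at chr22:31944764-31944803 on the plus strand. The YWHAE stretch is coding bases 31 to 70 and crosses the junction of exons 1 and 2 on the minus strand of chromosome 17. From YWHAB, the stretch differed in 7 bases in YWHAE, 8 in YWHAQ and 11 in YWHAH. The closest pairs were YWHAE and YWHAQ, and YWHAQ and YWHAH, with 4 differences each, and YWHAE and YWHAH had 5. Reads with more than 3 mismatches were removed by the study. The best-matching stretch of 40 coding bases for the pair YWHAQ and YWHAH alone had 38 identical bases. Where the probes lie was not used here, so whether reads are shared between these genes or with YWHAZ was not examined.

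The assay, RASL-seq, lets 2 probes anneal side by side on the mRNA of each gene, joins them by ligation, and counts the joined products by sequencing after PCR. The sum of all counts in a well lay between 13581 and 75969, with a median of 35239. The Yinyanghuo well 2 had the lowest sum and stood apart in its profile. Over the 143 genes whose mean count reached 20, its root mean square log2 distance from the median of its set's DMSO wells was 1.08. Yinyanghuo wells 1 and 3 had 0.64 and 0.54. The DMSO wells of the set, each compared with the median of the others, had 0.30 to 0.64. Each Yinyanghuo result of a member is therefore also given without that well where it changed. Levels are in CPM, counts brought to a common library total, with TMM scaling over all 57 wells, whereas fold changes are fitted within the 19 wells of a set. Read counts of different probe pairs depend on the pairs and are not corrected for length, so the order of the genes is an order of read counts and not of mRNA amounts. RNA came from whole wells, and fewer cells of a kind cannot be told apart from less RNA per cell.

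YWHAB and YWHAE were among the most counted genes of the panel, whereas YWHAQ and YWHAH were far lower. Over the 48 DMSO wells, the level of YWHAB was 40996 CPM in the lowest, 54138 in the median and 64523 in the highest well, and it ranked 3rd of the 412 genes. The level of YWHAE ran from 28821 through a median of 47082 to 70102 CPM, at rank 5. YWHAQ had 1886 to 4322 CPM with a median of 3046, at rank 60. The level of YWHAH was 403 to 1483 CPM with a median of 755, at rank 128, which corresponded to a median of only 28.5 reads in a well. Counting error alone is therefore far larger for YWHAH than for the other 3 members. Together the 4 genes took 6.89% to 13.1% of all counts in a well.

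**Figure D1:**
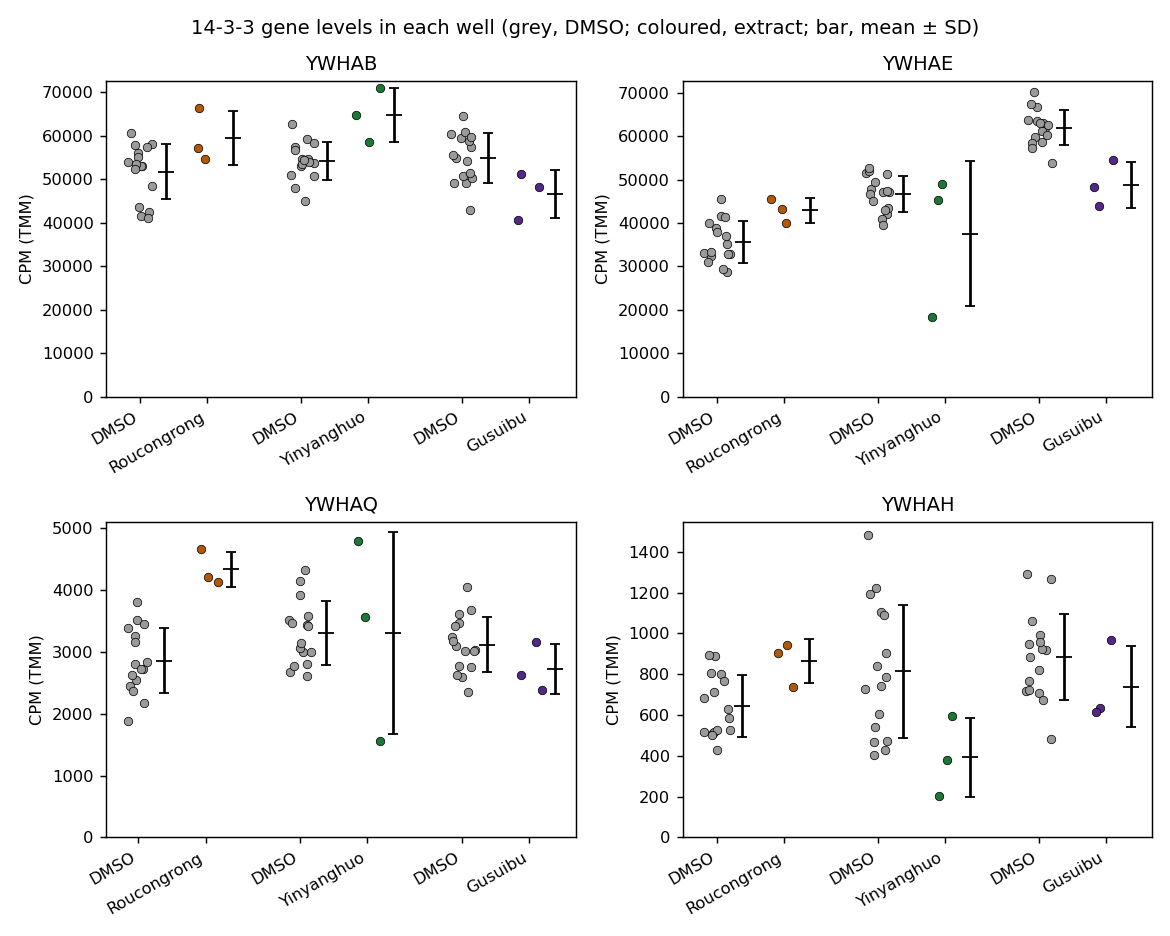
Level of each 14-3-3 gene in each well, in CPM on linear axes that start at 0, for the DMSO wells of each set (grey, 16 wells) and the wells with its extract (coloured, 3 wells), with the mean and SD of each group beside the points. The 3 Roucongrong wells lie above all DMSO wells of their set for YWHAQ, and the YWHAE level of the DMSO wells differs between the sets.

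Most steps in the order of the levels held in every well, and 2 did not. YWHAE had more counts than YWHAZ, and YWHAQ more than YWHAH, in 57 of 57 wells. YWHAB had more counts than YWHAE in 16 of 16 DMSO wells of the Roucongrong set and 16 of 16 of the Yinyanghuo set, but in 1 of 16 of the Gusuibu set. SFN had more counts than YWHAQ in 33 of 57 wells, so the places of these 2 neighbours did not separate.

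The ratio of YWHAE to YWHAB counts does not depend on the scaling of the wells, and its median differed between the 3 sets of DMSO wells. The range of the Yinyanghuo set overlapped with both others, and those of the Roucongrong and Gusuibu sets did not overlap. In the DMSO wells the ratio was 0.573 to 0.791 (median 0.691) in the Roucongrong set, 0.725 to 0.998 (median 0.857) in the Yinyanghuo set and 0.947 to 1.26 (median 1.13) in the Gusuibu set. With the extracts, the ratio in wells 1, 2 and 3 was 0.756, 0.729 and 0.685 for Roucongrong, all within the range of its DMSO wells. It was 0.943, 1.08 and 1.13 for Gusuibu, of which the first lay just below the DMSO range of its set. For Yinyanghuo it was 0.689, 0.285 and 0.770. Wells 1 and 2 with Yinyanghuo were below all 16 DMSO wells of their set and well 3 was within their range.

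**Figure D2:**
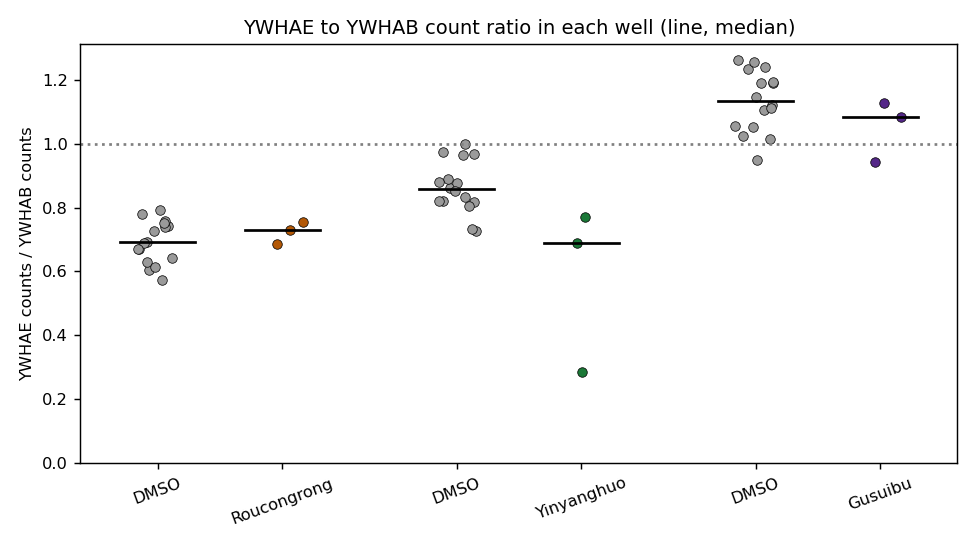
Ratio of YWHAE counts to YWHAB counts in each well, for the DMSO wells (grey) and the extract wells (coloured) of each set, with a line at each median and a dotted line at equal counts. The DMSO medians are 0.691, 0.857 and 1.13, and Yinyanghuo well 2 lies lowest at 0.285.

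The levels of YWHAE in the wells without any herb differed between the sets by more than the spread between wells. In edgeR's quasi-likelihood test over the 48 DMSO wells, the log2 difference in YWHAE was -0.79 (SE 0.05) between the Roucongrong and Gusuibu sets, with a Benjamini-Hochberg adjusted p of 3.6e-19. It was 0.39 (SE 0.05) between the Yinyanghuo and Roucongrong sets and -0.41 (SE 0.05) between the Yinyanghuo and Gusuibu sets, each with an adjusted p of 2.5e-08. The Roucongrong and Gusuibu DMSO wells did not overlap in YWHAE level, with a highest value of 45426 and a lowest value of 53817 CPM. The Yinyanghuo and Gusuibu DMSO wells did not overlap either, as the highest Yinyanghuo value was 52613 CPM. Such a gap was seen in 1.46% of the genes for Roucongrong and Gusuibu and in 0.489% for Yinyanghuo and Gusuibu. For Yinyanghuo and Roucongrong, whose YWHAE levels overlapped, it was seen in 0.98%. YWHAH was lower in the Roucongrong than in the Gusuibu DMSO wells, with a log2 difference of -0.44 (SE 0.15, edgeR adjusted p = 0.0233). For YWHAB and YWHAQ no difference between sets had an adjusted p under 0.05, but with edgeR's filterByExpr both had one between the Roucongrong set and each other set. The share of all genes with an adjusted p under 0.05 was 21.4% for Yinyanghuo and Roucongrong, 5.83% for Yinyanghuo and Gusuibu and 22.6% for Roucongrong and Gusuibu. The effect of each herb is therefore given first against the DMSO wells of its own set.

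With Roucongrong, YWHAQ rose and the other 3 genes did not meet the call rule. A gene was called when edgeR's unadjusted p was under 0.05 and the fold change above 1.5 or below 0.67, and 1 of the 4 members was called, where 10.2% of the 402 genes tested were. At an adjusted p under 0.05 it was also 1 of 4, where 2.99% of all genes passed, and at an unadjusted p under 0.05 alone 2 of 4 passed, where 15.4% did. The theta gene YWHAQ had 4659, 4209 and 4138 CPM in the 3 treated wells, against 1886, 2765 and 3804 CPM in the lowest, median and highest DMSO well. All 3 treated wells were above all 16 DMSO wells of the set, as for 0.995% of the genes tested, while 1.24% had all 3 below. The log2 fold change was 0.59 (SE 0.15, 95% interval 0.28 to 0.89, p = 0.000487, edgeR adjusted p = 0.0245). The two-sided exact permutation p over the 969 choices of 3 wells was 0.00103, the smallest it can give. The fold lay just above the 1.5 of the rule, and in edgeR with RLE scaling (0.58), in DESeq2 (0.57) and with a mean count of at least 5 (0.57) it was just below while the adjusted p stayed under 0.05. Leaving out well 1, 2 or 3 gave an edgeR adjusted p of 0.127, 0.0600 and 0.123.

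YWHAE, YWHAB and YWHAH had point estimates above 0 with Roucongrong. The level of YWHAE was 43197, 39921 and 45544 CPM, against 28821, 34239 and 45426 CPM in the lowest, median and highest DMSO well. The 3 wells were above the DMSO median, and 1 was above the highest DMSO well. Its log2 fold change was 0.25 (SE 0.10, p = 0.0235, edgeR adjusted p = 0.246), which is a fold of 1.19. YWHAB had 57142, 54766 and 66506 CPM, against 40996, 53350 and 60707, with a log2 fold change of 0.19 (SE 0.10, edgeR adjusted p = 0.319). The eta gene YWHAH had 906, 740 and 943 CPM, against 428, 607 and 896, with a log2 fold change of 0.39 (SE 0.22, edgeR adjusted p = 0.394). In both genes the treated wells were above the DMSO median, and in both they overlapped with the DMSO wells. The 95% interval reached from -0.01 to 0.38 for YWHAB and from -0.07 to 0.84 for YWHAH, and a rise by the fold of the rule lay inside the latter.

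With Yinyanghuo, YWHAH was called lower, though not in every fit without 1 treated well, and the 3 other genes were not called. Of the 4 members 1 was called, where 15% of the 400 genes tested were. With TMM, 0 of 4 had an edgeR adjusted p under 0.05, where 7.5% did, although YWHAB had one under other scalings and filters, given below, and YWHAH in the fit of all 57 wells (0.0466). At an unadjusted p under 0.05 alone there were 3 of 4, where 20.5% of all genes passed. YWHAH had 380, 204 and 593 CPM in the treated wells, against 403, 767 and 1483 CPM in the lowest, median and highest DMSO well. Wells 1 and 2 were below all 16 DMSO wells and well 3 was inside their range. These levels rest on 8, 3 and 21 reads, and the exact Poisson 95% interval of the 3 reads of well 2, which covers counting error only, runs from 42.1 to 597 CPM. The log2 fold change was -0.97 (SE 0.39, 95% interval -1.77 to -0.17, p = 0.0191, edgeR adjusted p = 0.142), a fold of 0.511, and the exact permutation p was 0.0186. Without well 2 it was -0.75 (p = 0.0917, edgeR adjusted p = 0.434), and without well 1 it was -0.90 (p = 0.0646, edgeR adjusted p = 0.269), so that the call did not hold in either case. All 3 wells lay above all DMSO wells for 1.25% of the genes tested and below for 2.75%, and YWHAH was not among them.

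YWHAE, YWHAB and YWHAQ were not called with Yinyanghuo, and the estimate for YWHAE rested on well 2. The level of YWHAE was 48953, 18444 and 45201 CPM, against 39503, 47082 and 52613 CPM in the lowest, median and highest DMSO well. Only well 2 was outside the DMSO range. The log2 fold change of -0.34 (SE 0.15, p = 0.0372, edgeR adjusted p = 0.201) was -0.02 (p = 0.806, edgeR adjusted p = 0.881) without that well and -0.57 (edgeR adjusted p = 0.0409) without well 1. YWHAB had 71079, 64724 and 58697 CPM, against 45048, 54250 and 62781, and wells 1 and 2 were above all DMSO wells. Its log2 fold change was 0.24 (SE 0.08, 95% interval 0.07 to 0.41, p = 0.00709, edgeR adjusted p = 0.0781), its exact permutation p was 0.0031, and without well 2 the log2 fold change was 0.22 (edgeR adjusted p = 0.171). The adjusted p was under 0.05 in 5 other fits, at 0.00372 for a log2 fold change of 0.35 with RLE scaling, 0.0318 with total counts, 0.000639 with DESeq2, 0.00541 with a mean count of at least 5 and 0.00347 with filterByExpr, all below the fold of the rule. Without well 3 it was 0.038 in edgeR, and without well 1 it was 0.303. YWHAQ had 4796, 1565 and 3557 CPM, against 2616, 3286 and 4322, so that 1 treated well lay above and 1 below all DMSO wells. Its log2 fold change was -0.01 (SE 0.19, edgeR adjusted p = 0.994), with an interval of -0.40 to 0.39, and 0.29 without well 2. In well 2 the 23 reads of YWHAQ gave the lowest level of any well measured.

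With Gusuibu, YWHAE was lower, by less than the fold of the rule, and no member was called. Thus 0 of 4 members were called, where 9.45% of the 402 genes tested were, whereas 1 of 4 had an edgeR adjusted p under 0.05, where 5.22% did, and 2 of 4 had an unadjusted p under 0.05, where 16.9% did. YWHAE had 48275, 43853 and 54400 CPM, against 53817, 62150 and 70102 CPM in the lowest, median and highest DMSO well. Wells 1 and 2 were below all 16 DMSO wells and well 3 was just above the lowest. The log2 fold change was -0.36 (SE 0.08, 95% interval -0.53 to -0.20, p = 8.7e-05, edgeR adjusted p = 0.0116), a fold of 0.778, and its p was the 3rd smallest of the comparison. The exact permutation p was 0.00206. Without well 1, 2 or 3 the edgeR adjusted p was 0.0481, 0.115 and 0.0022, and in the fit of all 57 wells it was 0.16 at a log2 fold change of -0.34 (SE 0.13). All 3 treated wells were above all DMSO wells for 0.249% of the genes and below for 0.995%, and no member was among either.

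The 3 other members also had point estimates below 0 with Gusuibu. YWHAB had 51178, 40540 and 48323 CPM, against 42842, 55238 and 64523, and well 2 was below all DMSO wells. Its log2 fold change was -0.26 (SE 0.10, 95% interval -0.46 to -0.07, p = 0.0097, edgeR adjusted p = 0.117), with an exact permutation p of 0.0268. YWHAQ had 2619, 2388 and 3161 CPM, against 2348, 3066 and 4045, all within the DMSO range, with a log2 fold change of -0.21 (SE 0.15, edgeR adjusted p = 0.52). YWHAH had 968, 633 and 616 CPM, against 483, 903 and 1290, also within that range, with a log2 fold change of -0.34 (SE 0.23, edgeR adjusted p = 0.499). The interval of YWHAH reached from -0.81 to 0.12, and a fall by the fold of the rule lay inside it.

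**Figure D3:**
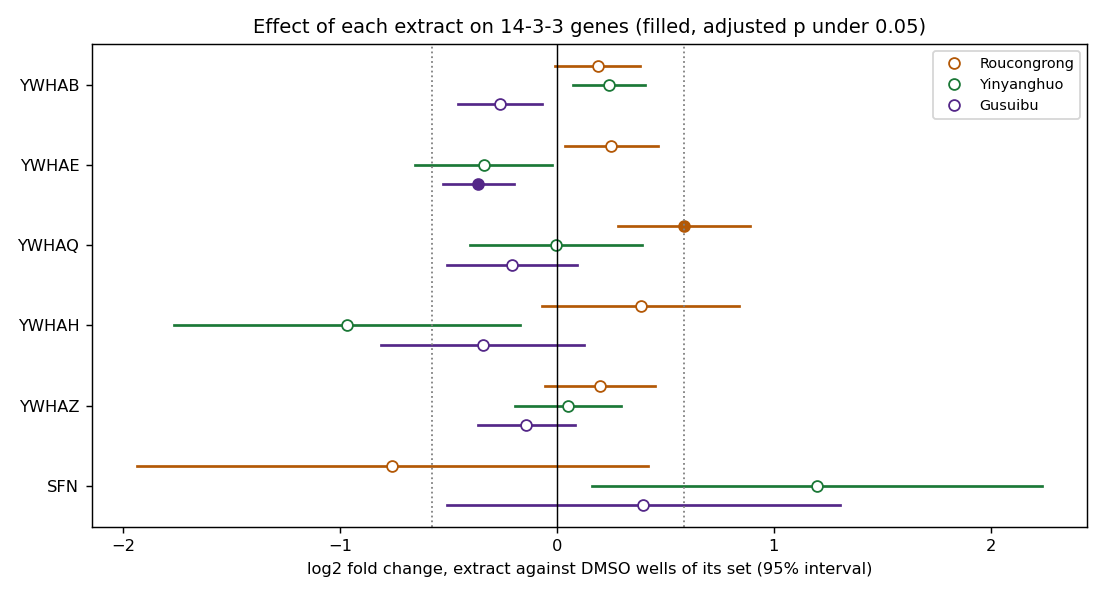
Log2 fold change of the 14-3-3 genes with each extract against the 16 DMSO wells of its set, with 95% intervals from edgeR. Filled points mark an adjusted p under 0.05, dotted lines mark the folds of 1.5 and 0.67, and the filled points are YWHAQ with Roucongrong (0.59) and YWHAE with Gusuibu (-0.36).

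**Figure D4:**
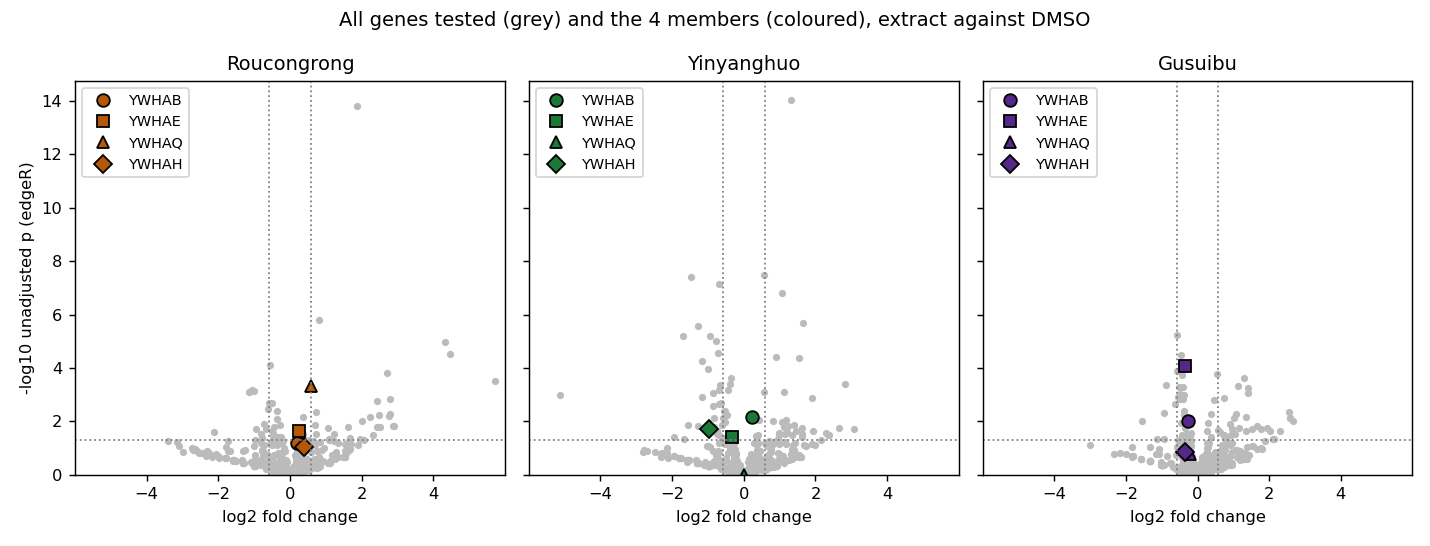
Log2 fold change (x axis) and -log10 of the unadjusted p (y axis) of all genes tested with each extract, with the 4 members coloured. Dotted lines mark p = 0.05 and the folds of 1.5 and 0.67, and YWHAQ with Roucongrong and YWHAH with Yinyanghuo are the members past both lines.

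The effects of the herbs on the members were also compared with each other, by interaction contrasts in an edgeR fit to the 57 wells together. Of the 12 differences, 6 had an adjusted p under 0.05. Over all 412 genes the share was 6.8% for Yinyanghuo minus Roucongrong, 5.58% for Yinyanghuo minus Gusuibu and 6.55% for Roucongrong minus Gusuibu. The 3 comparisons share groups and are not independent. For YWHAE the log2 effect of Roucongrong was above that of Gusuibu by 0.61 (SE 0.17, edgeR adjusted p = 0.0379), and the effect of Yinyanghuo was below that of Roucongrong by a difference of -0.57 (SE 0.17, edgeR adjusted p = 0.0344). The latter was -0.25 (edgeR adjusted p = 0.394) without Yinyanghuo well 2. For YWHAQ the effect of Roucongrong was above that of Gusuibu by 0.79 (SE 0.24, edgeR adjusted p = 0.0472). YWHAB had higher effects with Yinyanghuo and with Roucongrong than with Gusuibu, by 0.49 (SE 0.14, edgeR adjusted p = 0.0206) and 0.44 (SE 0.14, edgeR adjusted p = 0.0477). For YWHAH the effect of Yinyanghuo differed from that of Roucongrong by -1.34 (SE 0.41, edgeR adjusted p = 0.0355), and by -1.11 (edgeR adjusted p = 0.186) without Yinyanghuo well 2. None of the 6 kept an adjusted p under 0.05 through every fit without 1 treated well. YWHAB was lost without Roucongrong well 1 or 3 or Gusuibu well 2 or 3 for Roucongrong minus Gusuibu (highest edgeR adjusted p = 0.155), and without Yinyanghuo well 1 or Gusuibu well 3 for Yinyanghuo minus Gusuibu (0.108). YWHAE was lost without Roucongrong well 1 or 3 in both of its differences, and also without Gusuibu well 2 in the one (0.0822) and without Yinyanghuo well 2 in the other. YWHAQ was lost without Roucongrong well 1 or Gusuibu well 1 or 2 (0.108), and YWHAH without Yinyanghuo well 1 or 2 or Roucongrong well 1 or 3.

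The YWHAE effects depended on which DMSO wells served as controls. The treated wells of Roucongrong and Gusuibu, at 39921 to 45544 and 43853 to 54400 CPM, lay closer together than the DMSO wells of their sets, at medians of 34239 and 62150 CPM. Against DMSO wells taken from the other 2 sets, the log2 fold change of YWHAE was -0.37 (edgeR adjusted p = 0.122) with Roucongrong and 0.25 (edgeR adjusted p = 0.502) with Gusuibu, opposite to the values against the own set. For YWHAQ with Roucongrong it was 0.40 (edgeR adjusted p = 0.0567) and thus kept its direction but not its call. For YWHAH with Yinyanghuo it was -0.87 (edgeR adjusted p = 0.0559) and the gene was still called.

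The other 14-3-3 genes of the panel were less counted than YWHAB and YWHAE. YWHAZ, the zeta gene, had a median of 19173 CPM in the DMSO wells and was not called with any herb, with log2 fold changes of 0.20 (SE 0.12) with Roucongrong, 0.05 (SE 0.12) with Yinyanghuo and -0.14 (SE 0.11) with Gusuibu. SFN, the sigma gene, had 428 to 9301 CPM in the DMSO wells, and within a set its SD was 58.0% to 67.7% of its mean, against 6.52% to 40.3% for the members. With Yinyanghuo its treated wells had 8309, 9937 and 3783 CPM, against 506, 3092 and 6587, and wells 1 and 2 were above all DMSO wells. It was called, with a log2 fold change of 1.20 (SE 0.50, p = 0.0254, edgeR adjusted p = 0.175), but not without well 2 (0.90, edgeR adjusted p = 0.532) or without well 1 (1.10, edgeR adjusted p = 0.316). With Roucongrong SFN had 647, 1122 and 4077 CPM, against 428, 3084 and 9301, and was not called (-0.76, SE 0.57, edgeR adjusted p = 0.539), but was called without well 3 (-1.80, p = 0.0158, edgeR adjusted p = 0.451). With Gusuibu its log2 fold change was 0.40 (SE 0.44, edgeR adjusted p = 0.69). YWHAG, the gamma gene, had more than 3 counts in only 4 of the 48 DMSO wells, so no fold change is given for it.

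Of the genes that encode 14-3-3 clients, between 1 and 4 were called with a herb, several of them on few reads. The client list held 45 genes, 12 of which were in the panel. With Roucongrong 1 of 12 was called higher and 0 lower, where 7.21% and 2.99% of all genes were, and the median log2 fold change of the 12 was -0.15 against -0.04 for all genes. The called gene was FOXO4, a FOXO transcription factor, with 8, 9 and 11 reads against a DMSO median of 5 (log2 fold change 1.06, SE 0.42, edgeR adjusted p = 0.198). With Yinyanghuo 2 of 12 were called higher and 2 lower, where 7.75% and 7.25% of all genes were, with medians of 0.11 and -0.13. The first was BAD, whose death-promoting protein is kept inactive when bound to 14-3-3, at 1709, 2722 and 1016 CPM against 228, 784 and 1267 in the lowest, median and highest DMSO well (1.13, SE 0.30, edgeR adjusted p = 0.014). The second was FOXO4 (1.36, SE 0.60, edgeR adjusted p = 0.187), on 6, 1 and 10 reads. Of those called lower, MDM4 had its call on 0, 1 and 1 reads against 1 to 10 in the DMSO wells, and no fold is given. Without well 2, 2 of 12 were called higher and 1 lower. With Gusuibu 1 of 12 was called higher and 0 lower, where 7.71% and 1.74% of all genes were. It was FOXO1, with at most 2 reads in any well of the comparison. The client with an adjusted p under 0.05 was VIM, an intermediate filament, which was named after its values were seen and was lower by less than the fold of the rule at 18331, 17103 and 21657 CPM against 20301, 25598 and 28874 (-0.40, SE 0.10, edgeR adjusted p = 0.0187).

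The list of kinases and phosphatases that write or remove 14-3-3 docking sites held 34 genes, 20 of them in the panel, and gave 1 call with Roucongrong, 2 with Yinyanghuo and 1 with Gusuibu. These are 5%, 10% and 5% of the list, where 10.2%, 15% and 9.45% of all genes were called. PPP2CA, the catalytic subunit of the phosphatase PP2A, was called higher with Roucongrong at 777, 689 and 1552 CPM against 412, 546 and 1004 (log2 fold change 0.69, SE 0.26, edgeR adjusted p = 0.198). With Yinyanghuo, the AKT-related kinase SGK1 was called lower at 570, 544 and 1214 CPM against 701, 1440 and 2244 (-0.83, SE 0.32, edgeR adjusted p = 0.131). The other was the p21-activated kinase PAK3, on 2, 1 and 2 reads against 3 to 15, and 1 of the 20 was called lower without well 2. With Gusuibu, the kinase PIM1 was called higher at 228, 1584 and 677 CPM against 82, 310 and 948 (log2 fold change 1.40, SE 0.38, edgeR adjusted p = 0.0262), with 1 of 3 wells above the DMSO range. The median log2 fold changes of the 20 genes were 0.07, 0.10 and -0.08 with Roucongrong, Yinyanghuo and Gusuibu, against -0.04, -0.13 and 0.04 for all genes.

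Among the DMSO wells the members varied together and with other abundant genes. Over the 48 wells, after the mean of each set was subtracted from log2 CPM, the genes most like YWHAB among 142 were TXN (Pearson r = 0.75, Spearman rho = 0.69), DYNLL1 (0.75 and 0.65) and CDH2 (0.74 and 0.70). YWHAE was most like RHOA (r = 0.77, rho = 0.72), VIM (0.71 and 0.71) and DYNLL1 (0.70 and 0.66). For YWHAQ they included HSPB1 (r = 0.71, rho = 0.71) and VIM (0.71 and 0.74). YWHAH was most like another member, YWHAQ (r = 0.50, rho = 0.55), followed by HSPB1 (0.48 and 0.53) and YWHAZ (0.47 and 0.50). Between members, r ran from 0.30 (YWHAB and YWHAH) to 0.60 (YWHAB and YWHAE), whereas SFN had r from -0.34 (YWHAE) to 0.02 (YWHAH). Many genes outside the family were more alike to a member than other members were. In likeness to YWHAB among the 142 genes, YWHAE ranked 8th, YWHAQ 18th and YWHAH 50th. The other members ranked 8th to 24th in likeness to YWHAE, 9th to 15th for YWHAQ and 1st to 31st for YWHAH. These points share wells and their sequencing depth. The members had r from 0.38 to 0.44 with the log2 total count of the well, so these values are a description of the wells only.

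Marker genes of the cell line were few in the panel. Of 17 epithelial and proximal tubule markers 3 were measured (CDH2, VCAM1 and LCN2), and their summed level was 9678 to 20330 CPM in the DMSO wells, most of it from CDH2, the N-cadherin of proximal tubule cells. The summed level was 13086 to 17129 CPM with Roucongrong, 11638 to 19230 CPM with Yinyanghuo and 10452 to 13777 CPM with Gusuibu. The 16 DMSO wells of the Gusuibu set had 13782 to 19565 CPM, so the highest Gusuibu well was only just below the lowest of them. CDH2 alone did overlap, at 12069, 8868 and 11229 CPM with Gusuibu against 11850 to 17766 CPM in the DMSO wells. The log2 fold change of CDH2 with Gusuibu was -0.58 (SE 0.10, edgeR adjusted p = 0.00239). Its part in the lower YWHAE of these wells was not tested. With Yinyanghuo, LCN2 was called lower (-0.99, SE 0.22, edgeR adjusted p = 0.00282) and VCAM1 higher (1.08, SE 0.39, edgeR adjusted p = 0.0945). Of 16 markers of other cell types 4 were measured (ITGB2, ITGAX, CDH5 and KDR), with a summed level of 304 to 1531 CPM in the DMSO wells. ITGAX and CDH5, which mark leukocytes and endothelium, had at most 6 counts in any well. With Yinyanghuo the sum was 997 to 1157 CPM against 304 to 1350 in its DMSO wells, and ITGB2, an integrin of leukocytes, was called higher on 18, 2 and 25 reads (0.98, SE 0.43, edgeR adjusted p = 0.187). KDR, a receptor of endothelial cells, was called higher with Gusuibu on 4, 40 and 15 reads (1.34, SE 0.47, edgeR adjusted p = 0.101). The part of these markers in the levels of YWHAH and YWHAE was not tested.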

How the data were processed

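For each of the 57 wells the authors deposited raw counts, which are whole numbers of ligated probe reads and were not normalized. Reads with over 3 base mismatches had been removed, and the submitters' processing notes name Bowtie2 2.2.4 and DESeq2 1.22.1. The genome build is not given in the sources used here. Wells were grouped by their labels and none was left out. Identifiers of all 412 genes matched a symbol.

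Counts were tested with edgeR 4.0.16 in R 4.3.3 by the quasi-likelihood F test with TMM factors, for genes with a nonzero total, each herb's 3 wells against the 16 DMSO wells of its set. Interactions were fitted over all 57 wells and DMSO sets over 48. Adjusted p-values are Benjamini-Hochberg over all genes tested. Permutation tests compared means of log2 CPM (prior count 2). Reads carry no molecular identifiers, and an exact Poisson interval on the reads of a single well covers counting error only. The intervals of the fold changes come from the edgeR fits and include the spread between wells. No pair of replicate wells agreed within sampling noise (lowest chi-square per degree of freedom 1.69). The tests were tested on simulated data. Alternatives were RLE factors, total counts, DESeq2 1.42.0, 2 filters, each treated well left out, other controls, a depth covariate and a replicate block. Coding sequences came from GENCODE 29 and were aligned with MAFFT. Named genes were the members, the other 14-3-3 genes, called genes of the client and the kinase and phosphatase lists (at most 8 per herb), and the 3 genes most correlated with each member among those with a mean count of at least 20. Markers that changed were named after their values were seen. Some genes that this rule names are not reported here. The members and lists were chosen with earlier results of these data known.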

Additional observations from a re-analysis of the deposited data

Results flagged for a closer look

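The effects of 2 herbs on the same gene differed by the interaction test for 6 pairs, each at an edgeR adjusted p under 0.05 over all genes. For YWHAB, the log2 effect of Roucongrong exceeded that of Gusuibu by 0.44 and that of Yinyanghuo exceeded that of Gusuibu by 0.49. For YWHAE, the difference was 0.61 for Roucongrong minus Gusuibu and -0.57 for Yinyanghuo minus Roucongrong. For YWHAQ, the effect of Roucongrong exceeded that of Gusuibu by 0.79. For YWHAH, the effect of Yinyanghuo minus that of Roucongrong was -1.34. Each herb had its own set of DMSO wells, so a difference between herbs and a difference between sets cannot be told apart. No group had between 4 and 10 wells, so single wells were not tested as outliers.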

How the results depend on the processing

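With Roucongrong 41 genes were called (29 higher, 12 lower), and 26 with DESeq2, 21 with a mean count of at least 5, 19 with filterByExpr, and 24 to 54 when 1 treated well was left out, 24 of them without well 3. With Gusuibu 38 were called (31 higher, 7 lower), and 21, 19 and 20 in the same alternatives, and 24 with all 57 wells in a single fit. RLE scaling changed the split to 34 higher and 3 lower, as did total counts alone, and with Yinyanghuo from 31 higher and 29 lower to 40 and 23. The median log2 fold change of all genes with Yinyanghuo was -0.13 in the main fit, -0.05 with RLE and 0.12 with DESeq2. Each estimate is to be read against the median of its own fit. In the same order, YWHAB was 0.24, 0.35 and 0.35, and YWHAE was -0.34, -0.26 and -0.26.

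YWHAQ with Roucongrong missed the fold of 1.5 at 0.58 (RLE), 0.57 (DESeq2), 0.57 (mean count of at least 5), 0.40 (other DMSO sets) and 0.52 without well 1, with a range of 0.52 to 0.64 over the wells left out. YWHAH with Yinyanghuo lost its call without well 1 or 2, with a range of -1.44 to -0.75. With other DMSO sets as controls, YWHAE was -0.37 with Roucongrong and 0.25 with Gusuibu, YWHAH was -0.0229 with Roucongrong, and YWHAZ was -0.30 with Roucongrong and 0.32 with Gusuibu, each opposite in sign to the value against the own set. YWHAQ with Yinyanghuo, near 0, was 0.0719 (RLE), 0.0892 (DESeq2), 0.0518 (mean count of at least 5), 0.0375 (filterByExpr), 0.0228 (all wells), 0.14 (other sets), 0.0952 (depth covariate) and -0.34 to 0.29 over the wells left out. YWHAZ with Yinyanghuo was -0.12 to 0.20 over the wells left out, lowest without well 1. SFN with Yinyanghuo was 1.04 with the depth covariate and no longer called.

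The numbers in the well labels did not pair the wells (treated and DMSO wells of 1 number correlated from -0.53 to 0.49). DMSO wells of 1 number correlated across sets from -0.30 to 0.83, with 10, 10 and 8 of 16 over 0.1, so the replicate block only shows how the calls move. It gave 26, 37 and 22 calls for Roucongrong, Yinyanghuo and Gusuibu, YWHAH at -1.02 with Yinyanghuo (no longer called) and at -0.76 with Gusuibu (then called). It called SFN with Roucongrong (-1.16) and Gusuibu (1.02), changed no other call of the members and kept each DMSO set difference and herb difference of the members on its side of the threshold, although YWHAQ with Roucongrong (0.64) and YWHAE with Gusuibu (-0.38) then had edgeR adjusted p-values of 0.494 and 0.157.

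Among the DMSO sets, differences of YWHAB, YWHAQ and YWHAH passed in some alternatives only. Yinyanghuo minus Roucongrong was 0.17 (total counts, mean count of at least 5, filterByExpr) for YWHAB. For YWHAQ it was 0.26 (RLE), 0.30 (total counts), 0.26 (DESeq2), 0.30 (mean count of at least 5) and 0.31 (filterByExpr). For YWHAH it was 0.39, 0.42, 0.39, 0.43 and 0.43 in the same order. Roucongrong minus Gusuibu was -0.17, -0.14 and -0.16 for YWHAB with total counts, the mean filter and filterByExpr, and -0.20 for YWHAQ with filterByExpr. Yinyanghuo minus Gusuibu for YWHAB changed sign around 0, at 0.00739 (RLE), 0.0072 (DESeq2), 0.013 (filterByExpr) and 0.0244 (mean filter).

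For the differences between herbs, the ranges over the wells left out were 0.34 to 0.51 (YWHAB), 0.53 to 0.69 (YWHAE) and 0.69 to 0.92 (YWHAQ) for Roucongrong minus Gusuibu. For Yinyanghuo minus Gusuibu they were 0.42 to 0.63 (YWHAB), -0.20 to 0.35 (YWHAE) and -0.12 to 0.52 (YWHAQ). For Yinyanghuo minus Roucongrong they were -0.0139 to 0.18 (YWHAB), -0.81 to -0.25 (YWHAE), -0.90 to -0.27 (YWHAQ) and -1.83 to -1.11 (YWHAH). With total counts, YWHAQ was 0.72 (adjusted p = 0.0506) for Roucongrong minus Gusuibu, and YWHAE was -0.0555 for Yinyanghuo minus Gusuibu.

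Counts over the lists rest on few genes. Clients called higher were 0 with DESeq2 for Gusuibu, and over the wells left out 0 to 1 for Roucongrong and Gusuibu and 1 to 2 for Yinyanghuo. Clients called lower were 1 with RLE and DESeq2 for Yinyanghuo, 1 to 2 over its wells left out and 0 to 1 for Roucongrong. Kinases and phosphatases called higher with Yinyanghuo were 1 with RLE, DESeq2 and both filters and 0 to 1 over the wells left out, and 0 to 2 with Roucongrong and 0 to 1 with Gusuibu. Those called lower were 0 to 3, 1 to 3 and 0 to 1 with Roucongrong, Yinyanghuo and Gusuibu. The cause of these changes was not tested. The median levels stayed within 1 SD under both other scalings. For YWHAH, with a median of 28.5 reads, depth limits what can be seen.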
